A study of Homo sapiens with 9 samples.

Results

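ABCB1 and 7 genes beside it on chromosome 7 were followed across a drug-sensitive culture and a pair of taxane-resistant lines derived from MDA-MB-231, an established cell line from a human breast cancer. The 8 genes, in RefSeq gene order, were DMTF1, TMEM243, TP53TG1, CROT, ABCB4, ABCB1, RUNDC3B and SLC25A40. They were 8 of 11964 measured genes. Every probe set annotated to a single one of them was taken, which gave 10 of 22215 human probe sets: 3 for TP53TG1 and 1 for each other gene. A further probe set, 209994_s_at, is annotated to both ABCB4 and ABCB1 and is given as shared, outside these counts. The genes were selected on measured values, the intensity differences between docetaxel-resistant and sensitive cells around ABCB1, so their values in that comparison are described without a test.

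Total RNA from 9 cultures was labelled with biotin and hybridized to Affymetrix human gene expression arrays, 1 culture per array and 3 arrays per group, each from its own passage. Sensitive cells were grown with 1 µM verapamil, docetaxel-resistant cells with 2 nM docetaxel on top of 1 µM verapamil, and paclitaxel-resistant cells with 7 nM paclitaxel on top of the same verapamil. Verapamil, an inhibitor of the pump that ABCB1 encodes, was thus present in all 9 cultures, and no culture without it was analysed here. Each resistance was represented by 1 line, so errors describe passages and not separately selected lines, and the drug in the medium and the selected line cannot be told apart.

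ABCB1 encodes P-glycoprotein, an ATP-driven pump of the plasma membrane that expels many lipophilic drugs, among them docetaxel and paclitaxel. Its level is low in many breast cancer cells, and its appearance after selection with taxanes, anthracyclines or vinca alkaloids is a classic route to multidrug resistance. ABCB4, the adjacent gene, encodes a closely related protein that moves phosphatidylcholine across the bile canalicular membrane of hepatocytes. The other genes around them serve unrelated functions, and in drug-selected cells neighbours of ABCB1 have often been found to change along with it.

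The regions just upstream of the annotated starts are shown because these genes are compared as neighbours, and each sequence shows what its start does or does not share with the next. Sequences are from RefSeq on GRCh38.p14, read 5′ to 3′ on the stated strand. Capitals mark CCAAT and GGGCGG on either strand, the letters of a CCAAT box and of a GC box. Of the 8 genes 7 had an entry. ABCB1 has more than 1 annotated start. The 250 bases upstream of the far one, at chr7:87713296-87713545 on the minus strand, and of the near one, at chr7:87600885-87601134 on the minus strand, read as follows.
ABCB1, far start: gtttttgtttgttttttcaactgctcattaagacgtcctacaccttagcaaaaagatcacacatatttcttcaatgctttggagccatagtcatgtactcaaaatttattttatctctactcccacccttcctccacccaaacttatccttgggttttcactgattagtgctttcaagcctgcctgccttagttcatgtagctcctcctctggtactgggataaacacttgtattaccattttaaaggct
ABCB1, near start: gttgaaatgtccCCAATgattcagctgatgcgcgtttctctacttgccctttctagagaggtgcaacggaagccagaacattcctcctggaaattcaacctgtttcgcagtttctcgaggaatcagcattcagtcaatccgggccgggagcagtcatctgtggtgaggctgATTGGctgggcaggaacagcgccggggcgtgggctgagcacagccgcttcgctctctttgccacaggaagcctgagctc
The near window had a GC content of 55.6% and held 2 CCAAT, 1 TGANTCA (the letters of an AP-1 site) and 1 GCGTG (the core of a hypoxia or dioxin response element). The far window had a GC content of 39.2% and held none of the 6 motifs searched, which also included TATAAA and CACGTG. Each motif was counted on both strands. Over 35116 promoter windows of the same length the median GC content was 58%. CCAAT was present in 32% of these windows, GGGCGG in 42.6%, TATAAA in 10.7%, TGANTCA in 6.57%, GCGTG in 32.2% and CACGTG in 6.34%.

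CROT, on the plus strand, and TP53TG1, on the minus strand, start back to back. The 171 bases between their starts, chr7:87345493-87345663, are printed on the plus strand because a single segment lies upstream of both. For TMEM243 the 250 bases upstream of its farthest start, chr7:87220588-87220837 on the minus strand, are printed. At the other edge of the 8 genes, SLC25A40 and the next gene, DBF4, also start back to back, with the 132 bases of chr7:87876361-87876492 between them, printed on the plus strand.
CROT to TP53TG1: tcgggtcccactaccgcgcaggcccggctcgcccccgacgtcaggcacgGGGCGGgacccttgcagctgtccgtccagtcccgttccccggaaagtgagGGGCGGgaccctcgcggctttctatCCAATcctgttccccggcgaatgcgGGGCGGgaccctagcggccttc
TMEM243: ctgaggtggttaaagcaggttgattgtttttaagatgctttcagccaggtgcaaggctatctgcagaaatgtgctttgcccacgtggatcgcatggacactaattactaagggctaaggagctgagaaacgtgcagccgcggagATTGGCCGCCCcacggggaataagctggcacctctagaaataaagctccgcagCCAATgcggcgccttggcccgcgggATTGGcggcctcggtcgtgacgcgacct
DBF4 to SLC25A40: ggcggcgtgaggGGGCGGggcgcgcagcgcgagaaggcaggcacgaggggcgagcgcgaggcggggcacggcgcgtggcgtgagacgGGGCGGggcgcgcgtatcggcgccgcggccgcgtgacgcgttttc
The segment between CROT and TP53TG1 had a GC content of 71.3% and held 3 GGGCGG and 1 CCAAT. The TMEM243 window held 3 CCAAT, 1 GGGCGG and 1 CACGTG. The segment between DBF4 and SLC25A40 had a GC content of 81.1% and held 2 GGGCGG and 4 GCGTG. Among the windows not printed, that of RUNDC3B held 1 CCAAT and that of DMTF1 none. A match describes letters only.

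ABCB1 was near the bottom of the scale in sensitive cells and high in the docetaxel-resistant line, with the paclitaxel-resistant line in between. Its probe set 209993_at read 6.24, 5.43 and 10.4 in sensitive replicates 1 to 3 as deposited intensity, a linear brightness on the scale of the authors' probe set summary. It read 862, 851 and 1363 in the docetaxel-resistant replicates and 87.4, 53.1 and 48.4 in the paclitaxel-resistant ones. No value of any group overlapped another group's: the lowest paclitaxel-resistant array lay above all sensitive arrays and the highest lay below all docetaxel-resistant ones. In bulk RNA, more cells with the transcript and more transcript per cell cannot be told apart. Replicate 3 was the highest of the docetaxel-resistant arrays and replicate 1 the highest of the paclitaxel-resistant ones.

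Differences are given on the log2 scale of intensity plus 16 after quantile normalization, which understates a difference that begins near 0. On that scale ABCB1 stood 5.41 ± 0.19 (SE, n = 3 per group) higher in the docetaxel-resistant line than in sensitive cells, with a 95% interval of 4.99 to 5.83. This equals 42.5-fold on that scale. No other of the 22215 human probe sets had a larger positive difference in that comparison. Mean intensity went from 7.35 ± 2.65 (SD, n = 3) in sensitive cells to 1025 ± 292 in the docetaxel-resistant line and 63.0 ± 21.3 in the paclitaxel-resistant line.

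The shared probe set 209994_s_at followed ABCB1 rather than ABCB4 in the paclitaxel-resistant line. It read 10.4, 0.01 and 1.12 in sensitive cells, 688, 596 and 1082 in the docetaxel-resistant line, and 47.6, 31.0 and 24.6 in the paclitaxel-resistant line. Its difference from sensitive cells was 5.29 ± 0.25 in the docetaxel-resistant line, close to that of ABCB1. The groups did not overlap, as with ABCB1.

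ABCB4, the phospholipid transporter, was low in sensitive cells and in the paclitaxel-resistant line alike. Its probe set 207819_s_at read 7.41, 18.6 and 10.9 in sensitive cells, 127, 98.8 and 79.7 in the docetaxel-resistant line, and 17.1, 7.10 and 7.28 in the paclitaxel-resistant line. All docetaxel-resistant arrays lay above all others, while the sensitive and paclitaxel-resistant arrays overlapped. The docetaxel-resistant line stood 1.95 ± 0.23 higher than sensitive cells. The order of the docetaxel-resistant replicates differed from that of ABCB1: for ABCB4 replicate 1 was the highest and replicate 3 the lowest. ABCB4 and the adjacent CROT lie on opposite strands and their annotated spans overlap.

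CROT encodes carnitine O-octanoyltransferase, a peroxisomal enzyme that prepares shortened fatty acids for export to mitochondria. Its probe set 204573_at read 32.9, 19.5 and 27.1 in sensitive cells, 250, 320 and 443 in the docetaxel-resistant line, and 88.3, 57.4 and 68.7 in the paclitaxel-resistant line. The 3 groups did not overlap and kept the order seen for ABCB1. The docetaxel-resistant line stood 2.92 ± 0.18 above sensitive cells.

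TP53TG1 is a long non-coding RNA first described as a target of p53, and its 3 probe sets gave the same order of groups. Probe set 209917_s_at read 18.6, 21.4 and 19.6 in sensitive cells, 208, 241 and 208 in the docetaxel-resistant line, and 72.0, 37.8 and 74.1 in the paclitaxel-resistant line. Probe set 210241_s_at read 18.6 to 22.2, 154 to 201 and 43.2 to 60.3 in the same groups. The third, 210886_x_at, of a class whose probes can match other transcripts, read 31.3 to 53.8, 215 to 261 and 63.2 to 85.3. None of the 3 had overlapping groups. The docetaxel-resistant line stood 2.59 ± 0.18, 2.22 ± 0.15 and 1.92 ± 0.16 above sensitive cells, in that order of probe sets. The probe set with the highest intensity in sensitive cells had the smallest difference.

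TMEM243 encodes a small transmembrane protein. Its probe set 204215_at was already bright in sensitive cells, at 219, 100.4 and 255. It read 1541, 1645 and 2139 in the docetaxel-resistant line and 444, 216 and 278 in the paclitaxel-resistant line. The docetaxel-resistant arrays lay above all others, whereas the sensitive and paclitaxel-resistant arrays overlapped. The docetaxel-resistant line stood 3.11 ± 0.24 above sensitive cells, the second-highest of the 8 genes. Because its sensitive level was far from 0, this difference was little affected by the number added before taking logs (3.21 with 1 added in place of 16).

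DMTF1 encodes a Myb-like transcription factor that activates ARF, an upstream regulator of p53, and it marked the edge of the raised genes. Its probe set 203301_s_at read 24.0, 14.1 and 21.2 in sensitive cells, 45.6, 85.2 and 166 in the docetaxel-resistant line, and 69.3, 18.0 and 32.3 in the paclitaxel-resistant line. The docetaxel-resistant arrays spread widely but all lay above the sensitive ones. They overlapped the paclitaxel-resistant arrays, among which only replicate 1 exceeded the lowest docetaxel-resistant one. The docetaxel-resistant line stood 1.42 ± 0.33 above sensitive cells, and 1.06 without docetaxel-resistant replicate 3.

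RUNDC3B, a RUN domain protein whose gene begins inside the annotated span of ABCB1 on the opposite strand, was close to the bottom of the scale throughout. Its probe set 215321_at read 6.78, 3.30 and 4.26 in sensitive cells, 0.05, 20.6 and 22.3 in the docetaxel-resistant line, and 17.2, 9.91 and 12.0 in the paclitaxel-resistant line. In the docetaxel-resistant line replicate 1 lay below every sensitive array and the other replicates above them. The difference was 0.42 ± 0.26, with a 95% interval of -0.15 to 1.00, and 0.81 without docetaxel-resistant replicate 1.

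SLC25A40, a mitochondrial carrier related to the glutathione carrier SLC25A39, was nearly level. Its probe set 205716_at read 30.9, 26.9 and 31.1 in sensitive cells, 29.7, 31.6 and 34.8 in the docetaxel-resistant line, and 44.5, 31.1 and 35.3 in the paclitaxel-resistant line. The sensitive and docetaxel-resistant arrays overlapped. Their difference was -0.03 ± 0.12, with a 95% interval of -0.31 to 0.24, and it was 0.07 on the deposited values without normalization.

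**Figure D1:**
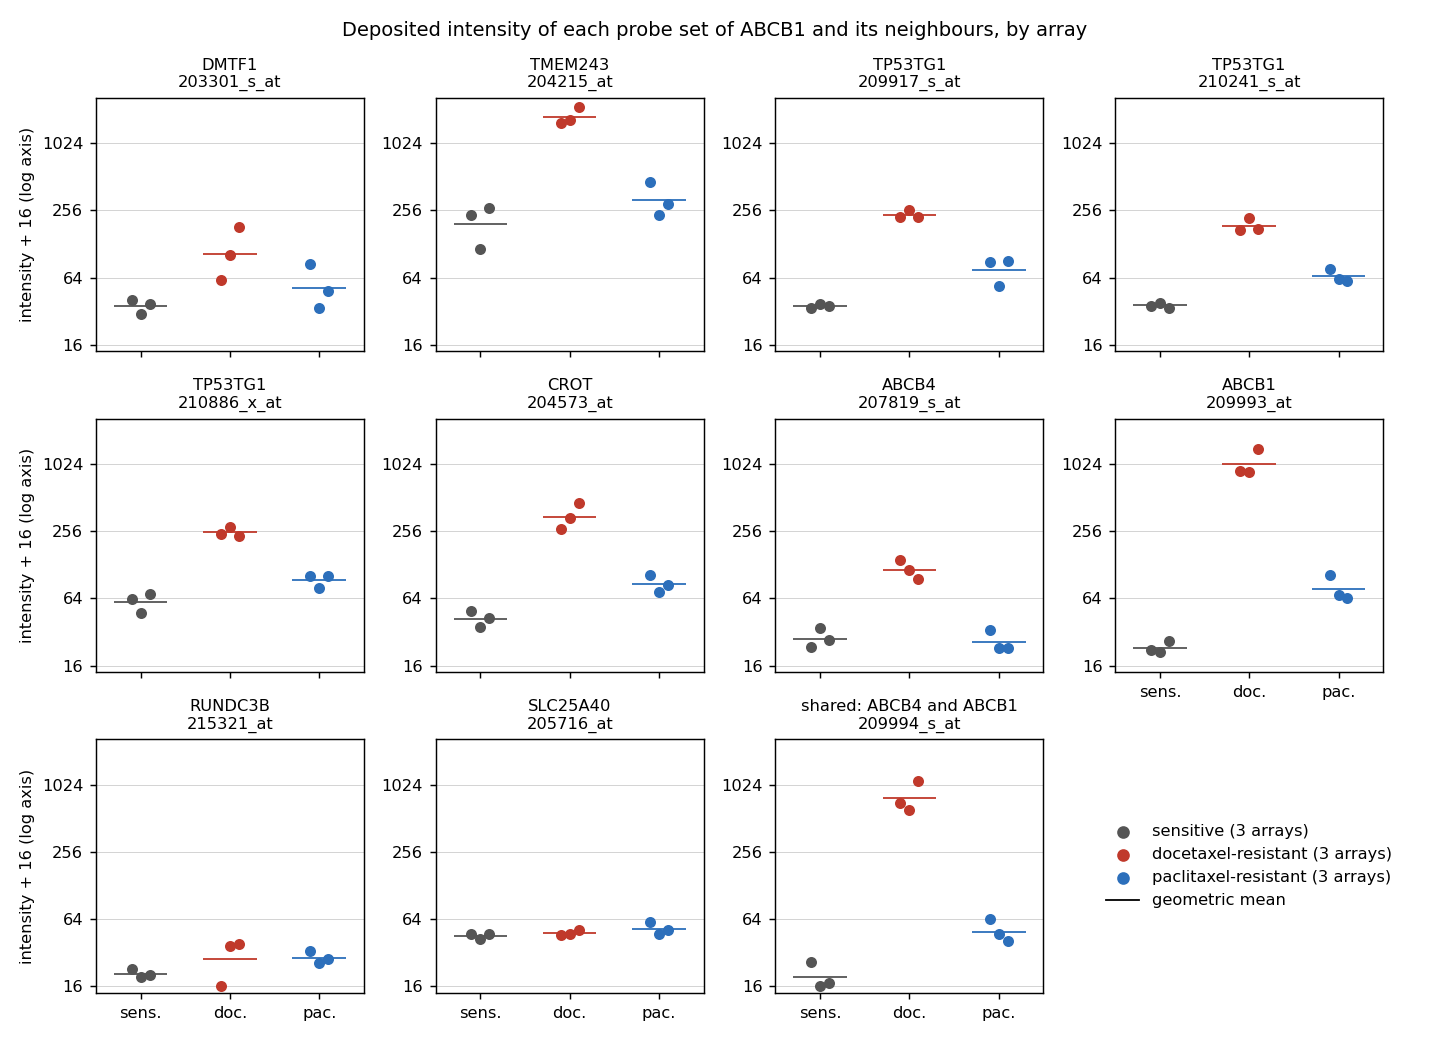
Deposited intensity plus 16 on a log axis for each probe set, with 1 point per array (sens., sensitive; doc., docetaxel-resistant; pac., paclitaxel-resistant) and a line at the geometric mean of each group of 3. ABCB1 and the probe set it shares with ABCB4 span the widest range, while SLC25A40 stays between 26.9 and 44.5 in all 9 arrays before 16 is added.

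In the comparison of the docetaxel-resistant line with sensitive cells, 8 of the 10 probe sets had all 3 resistant arrays above all 3 sensitive ones, against 18.7% of all human probe sets. RUNDC3B and SLC25A40 were the others. These orders are of deposited intensity without normalization. There the median of every docetaxel-resistant array (39.2 to 43.9) exceeded that of every sensitive array (33.7 to 39.1). The median difference over the 10 probe sets was 2.09, and over all probe sets it was -0.05. The genes were picked in view of this comparison, so nothing is read from these counts. Over all human probe sets 17.7% passed limma's test there at an adjusted p below 0.05, in either direction.

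The comparison of the paclitaxel-resistant line with sensitive cells uses other resistant arrays and the same sensitive ones, so the values of both comparisons rest in part on shared arrays. ABCB1 rose in paclitaxel-resistant cells, by 1.72 ± 0.19 (95% interval 1.30 to 2.14, limma, adjusted p = 0.000108 over all human probe sets). CROT rose by 0.99 ± 0.18 (limma, adjusted p = 0.00243). The TP53TG1 probe sets 209917_s_at and 210241_s_at rose by 1.02 ± 0.18 (limma, adjusted p = 0.00239) and 0.81 ± 0.15 (limma, adjusted p = 0.00248). The third, 210886_x_at, rose by 0.59 ± 0.16 (limma, adjusted p = 0.0251), a call that was lost without sensitive replicate 2 (adjusted p = 0.0843), paclitaxel-resistant replicate 1 (0.0671) or paclitaxel-resistant replicate 3 (0.0901).

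ABCB4 stood at -0.11 ± 0.23 in the paclitaxel-resistant line (95% interval -0.61 to 0.39, limma, adjusted p = 0.808). That interval lies below the 1.95 seen for ABCB4 in the docetaxel-resistant line and below the lower bound of ABCB1 in the paclitaxel-resistant line. The probe set shared by ABCB4 and ABCB1 rose by 1.33 ± 0.25 (limma, adjusted p = 0.00277), a call lost with 64 added in place of 16 (adjusted p = 0.0749). TMEM243 stood at 0.66 ± 0.24 (limma, adjusted p = 0.0806), and it was called without sensitive replicate 3 (adjusted p = 0.0474). DMTF1 at 0.49 ± 0.33 (adjusted p = 0.374) and SLC25A40 at 0.14 ± 0.12 (adjusted p = 0.533) were not called. RUNDC3B at 0.48 ± 0.26 (adjusted p = 0.254) was called only when docetaxel-resistant replicate 1, an array outside the comparison, was left out of the shared estimate of spread (adjusted p = 0.0400).

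Thus 5 of 10 probe sets, those of ABCB1, CROT and TP53TG1, were called higher in the paclitaxel-resistant line and none lower, against 9.21% of all human probe sets called higher and 18.6% called in either direction. In deposited intensity without normalization, all 3 paclitaxel-resistant arrays lay above all 3 sensitive ones in 7 of 10, against 15.8% of all probe sets. These 7 were the 5 called ones, RUNDC3B and SLC25A40. For SLC25A40 the margin was 31.1 in paclitaxel-resistant replicate 2 against 31.09 in sensitive replicate 3. After normalization its groups overlapped, with log2 values of 5.58 in paclitaxel-resistant replicate 2 and 5.62 in sensitive replicate 1. The median difference of the 10 probe sets was 0.62, and that of all probe sets was -0.03. With 1 probe set per gene, 3 of the 8 genes were called, all higher. Over all 11964 genes 1269 were called higher and 21.0% in either direction.

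**Figure D2:**
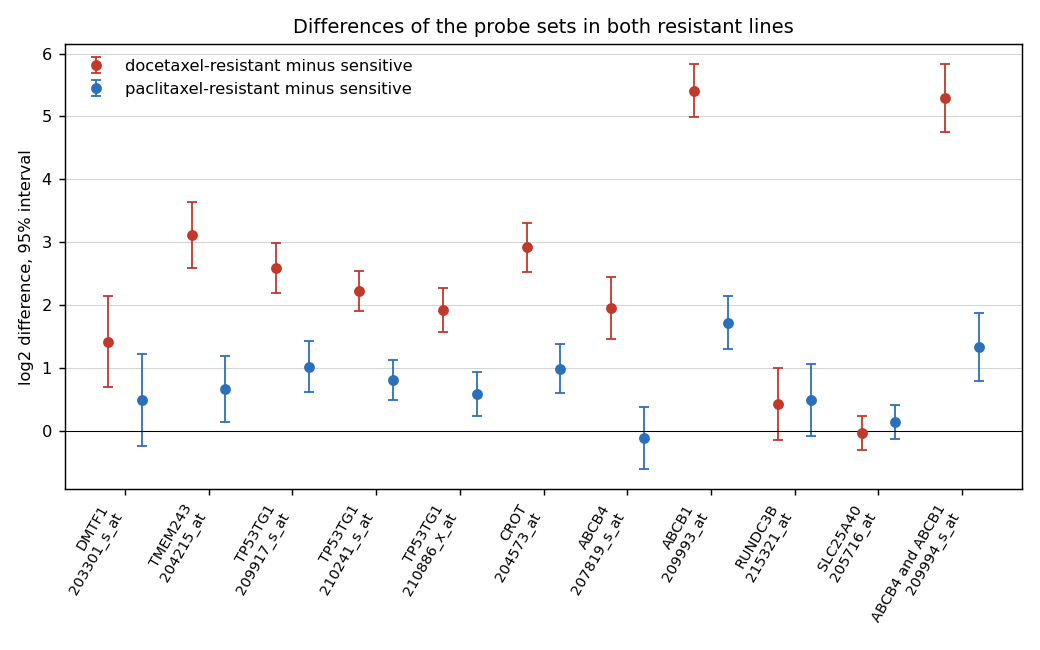
Log2 difference from sensitive cells of each probe set in the docetaxel-resistant and the paclitaxel-resistant line, with 95% intervals, in gene order. ABCB1 has the largest difference of the 8 genes in both lines (5.41 and 1.72), while ABCB4 is at 1.95 in the first and -0.11 in the second.

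The drugs differed in dose as well as in kind, 2 nM docetaxel against 7 nM paclitaxel, and the lines are set side by side with no test of the members. For ABCB1 the paclitaxel-resistant minus the docetaxel-resistant line gave -3.69 ± 0.19 (95% interval -4.11 to -3.27), a level 12.9-fold lower on that scale. The same difference was -2.45 for TMEM243, -2.06 for ABCB4, -1.93 for CROT and -1.57, -1.41 and -1.33 for the TP53TG1 probe sets. DMTF1 differed by -0.93 with overlapping arrays. RUNDC3B and SLC25A40 differed by 0.06 (95% interval -0.51 to 0.63) and 0.17 (95% interval -0.10 to 0.44). In deposited intensity without normalization, all paclitaxel-resistant arrays lay below all docetaxel-resistant ones in 7 of 10 probe sets, against 2795 of all 22215 human probe sets. Between these lines 1.60% of all human probe sets were called in either direction.

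The genes beyond the edges were examined next, with the 10 nearest measured genes on either side, 1 probe set each. The edges were chosen with the differences in the docetaxel-resistant line known. Values in that line therefore describe the edges and cannot test where they lie. None of the 10 before DMTF1 was called in the paclitaxel-resistant line. None was called in the docetaxel-resistant line either, but nothing is read from that count because the edge was chosen there. The nearest, GRM3, a metabotropic glutamate receptor, stood at 0.19 (limma, adjusted p = 0.497) in the paclitaxel-resistant line. In the docetaxel-resistant line it stood at 0.04, given without a test. ELAPOR2, which lies between GRM3 and DMTF1, was not measured here. The 10 before DMTF1 ranged from -0.37 to 0.28 in the docetaxel-resistant line, below DMTF1 at 1.42.

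Of the 10 genes after SLC25A40, 1 was called higher and 2 lower in the docetaxel-resistant line, and 2 higher and 2 lower in the paclitaxel-resistant line. DBF4, which encodes the regulatory subunit of the CDC7 replication kinase and shares the upstream segment printed above with SLC25A40, read 22.9, 23.9 and 25.1 in sensitive cells. It read 32.4, 48.7 and 89.6 in the docetaxel-resistant line and 99.3, 49.3 and 44.4 in the paclitaxel-resistant line. All resistant arrays lay above all sensitive ones. DBF4 rose by 0.88 ± 0.24 (limma, adjusted p = 0.0240) in the paclitaxel-resistant line. That call was lost without sensitive replicate 1 (adjusted p = 0.0525), sensitive replicate 3 (0.0684) or paclitaxel-resistant replicate 1 (0.0956). In the docetaxel-resistant line DBF4, next to the chosen edge, stood at 0.64 ± 0.24, and at 0.39 to 0.86 with 1 array left out, given without a test.

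STEAP1, a member of a family of membrane metalloreductases, fell by 0.90 (limma, adjusted p = 0.0133) in the docetaxel-resistant line and by 1.47 (adjusted p = 0.000732) in the paclitaxel-resistant line. FZD1, a Wnt receptor, fell by 0.97 (limma, adjusted p = 0.00812) and 1.24 (adjusted p = 0.00187). On the deposited values without normalization both calls in the docetaxel-resistant line were lost (adjusted p = 0.0673 for STEAP1 and 0.0694 for FZD1). CDK14, a cyclin-dependent kinase, rose by 0.85 (limma, adjusted p = 0.0461) and 1.04 (adjusted p = 0.0172). Its call in the docetaxel-resistant line was lost when any single docetaxel-resistant array was left out (adjusted p = 0.0644, 0.0682 and 0.185 without replicates 1, 2 and 3), and also without sensitive replicate 2 (0.153) or 3 (0.0580). Its call in the paclitaxel-resistant line was lost without sensitive replicate 2 (0.0540) or paclitaxel-resistant replicate 1 (0.0725). Its dimmer probe set stood at 0.06 and -0.02.

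**Figure D3:**
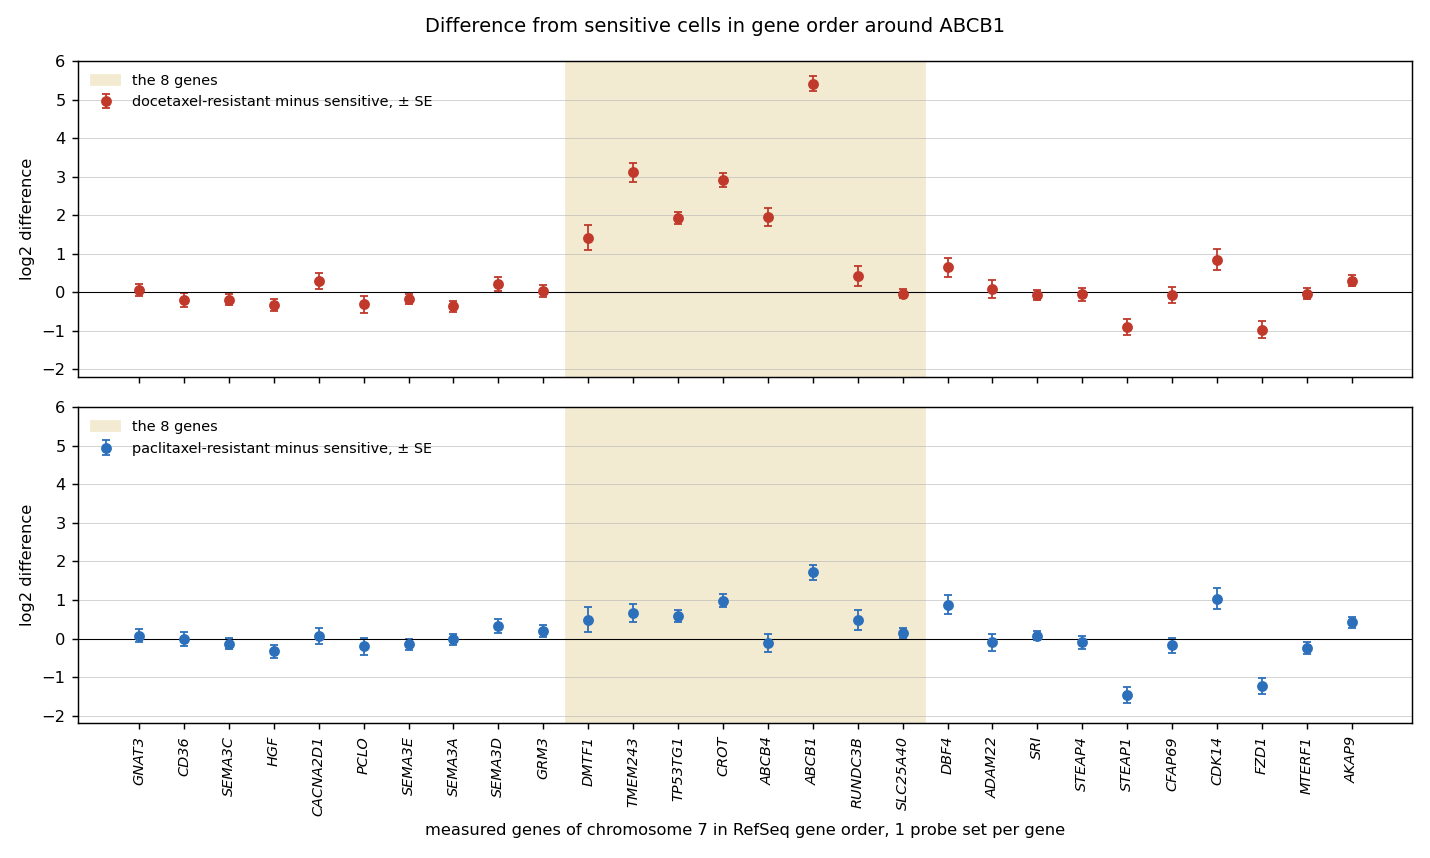
Log2 difference from sensitive cells, ± SE, of the 8 genes (shaded) and the 10 measured genes on either side, in gene order with equal spacing, for the docetaxel-resistant line above and the paclitaxel-resistant line below. In the upper panel the raised genes run from DMTF1 (1.42) to ABCB1 (5.41), with GRM3 at 0.04 on one side and RUNDC3B at 0.42 on the other.

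Across the rest of chromosome 7, 531 measured genes without the 8, 46 were called higher and 54 lower in the docetaxel-resistant line, which is 18.8%. In the paclitaxel-resistant line 70 were called higher and 44 lower, which is 21.5%. With 1 probe set per gene, the shares over all 11964 genes were 20.4% and 21.0%. The highest difference among the other genes of the chromosome was 2.87 in the docetaxel-resistant line, below ABCB1, TMEM243 and CROT. In the paclitaxel-resistant line it was 2.77, above ABCB1.

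**Figure D4:**
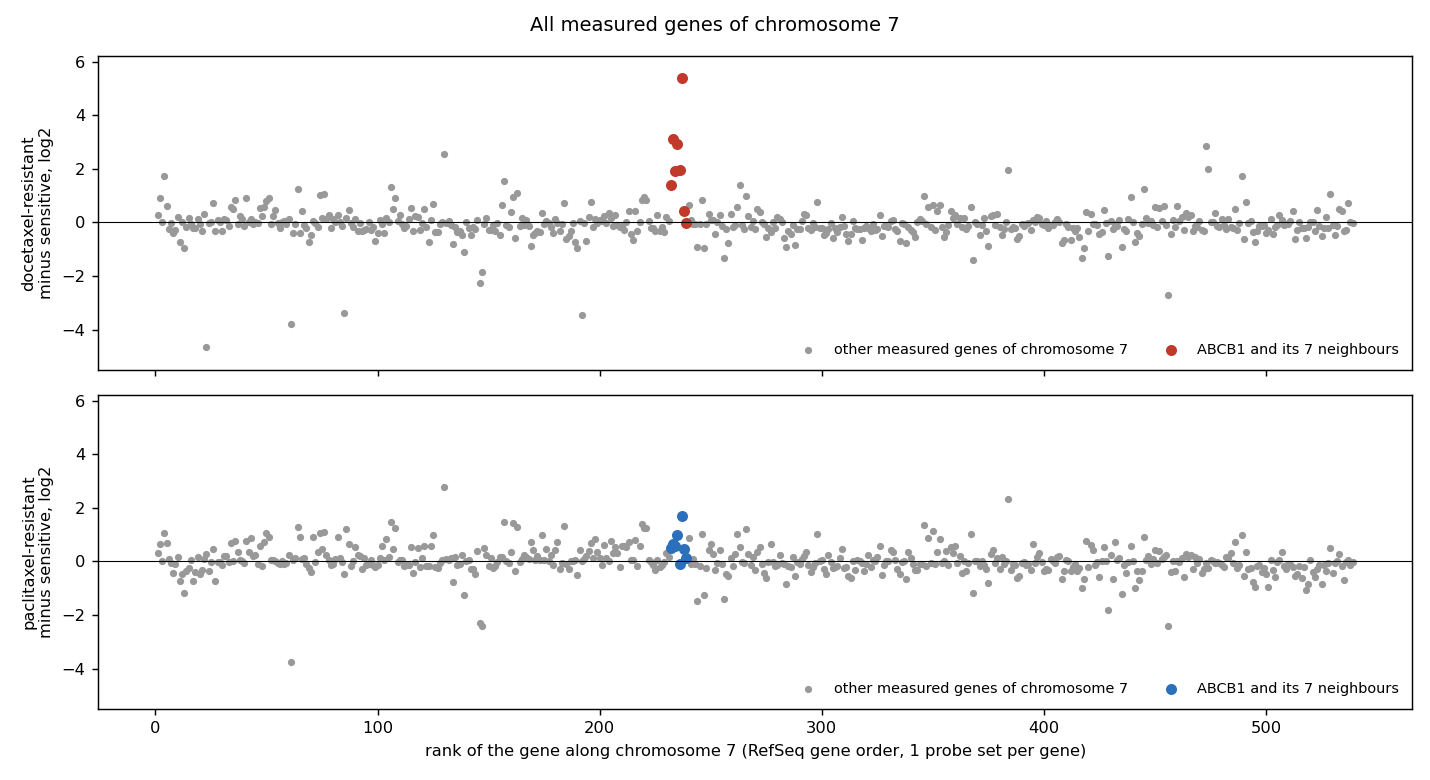
Log2 difference from sensitive cells for all 539 measured genes of chromosome 7, by rank along the chromosome, 1 probe set per gene, with the 8 genes enlarged. The docetaxel-resistant line (above) has ABCB1 at the top with TMEM243 and CROT next, and the paclitaxel-resistant line (below) has other genes of the chromosome above ABCB1.

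Other genes of the pathways that the 8 genes belong to were taken from lists of known members. Counts are of genes with 1 probe set each, against the 20.4% and 21.0% called over all genes. Of 10 other multidrug transporters, 1 was called lower in the docetaxel-resistant line, and 1 higher and 1 lower in the paclitaxel-resistant line. Their median differences were -0.12 and -0.10. ABCC10, an efflux pump that also carries taxanes, fell by 0.51 (limma, adjusted p = 0.0314) and 0.56 (adjusted p = 0.0197), and ABCA2, a lipid transporter of endolysosomes, rose by 0.85 (adjusted p = 0.0186) in the paclitaxel-resistant line. The calls of ABCC10 were lost without sensitive replicate 2 or 3 or replicate 1 or 3 of the resistant line (adjusted p up to 0.129 and 0.0696), and that of ABCA2 without any paclitaxel-resistant array (up to 0.0541). A dimmer ABCA2 probe set was called in both lines. It rose by 0.63 (limma, adjusted p = 0.00770) and 1.12 (adjusted p = 0.000209). The dimmest ABCA2 probe set, at -0.04 and 0.25, was not called (adjusted p = 0.888 and 0.252). The dimmer ABCC10 probe set, at -0.38 and -0.32, was not called either (adjusted p = 0.0992 and 0.165).

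Of 6 other members of the ABCB subfamily, 2 were called lower in the docetaxel-resistant line and 1 in the paclitaxel-resistant line, and none was called higher. ABCB9, a lysosomal peptide transporter, fell by 1.30 ± 0.16 (limma, adjusted p = 0.000208) and 1.40 ± 0.16 (adjusted p = 0.000114), and its other probe set was also lower (-0.74 and -0.57). ABCB8, of the mitochondrial inner membrane, fell by 0.63 (adjusted p = 0.0361) in the docetaxel-resistant line, a call lost under 10 of 19 alternatives.

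Among 26 reported regulators of ABCB1 transcription, 3 were called higher and 3 lower in the docetaxel-resistant line, and none higher and 5 lower in the paclitaxel-resistant line. Their median differences were -0.10 and -0.05. JUN, a subunit of AP-1, fell by 1.00 ± 0.16 (limma, adjusted p = 0.00113) and 1.15 ± 0.16 (adjusted p = 0.000410), and its 3 other probe sets fell as well. ETS1 fell by 0.78 ± 0.14 (adjusted p = 0.00216) and 0.85 ± 0.14 (adjusted p = 0.00119). FOXO3, a forkhead factor, rose by 1.12 ± 0.21 (adjusted p = 0.00355) in the docetaxel-resistant line and stood at 0.62 (adjusted p = 0.0649, and 0.0328 without sensitive replicate 3) in the other. MBD2, which binds methylated DNA, rose by 0.93 in the docetaxel-resistant line (adjusted p = 0.0119, and 0.0529 without docetaxel-resistant replicate 3), but its probe sets disagreed, with another at -0.45.

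Of 8 proteins reported to bind or process P-glycoprotein, 2 were called higher and 1 lower in the docetaxel-resistant line, and 3 higher and 1 lower in the paclitaxel-resistant line. CANX, the chaperone calnexin of the endoplasmic reticulum, rose by 1.20 ± 0.19 (limma, adjusted p = 0.000979) and 1.37 ± 0.19 (adjusted p = 0.000401), in all 3 of its probe sets. RDX, the membrane-to-actin linker radixin, rose by 1.26 (adjusted p = 0.0187, and 0.0609 without sensitive replicate 2) and 1.47 (adjusted p = 0.00801), while its dimmer probe sets were not called. MSN, the related moesin, fell by 0.73 (adjusted p = 0.00221) in the paclitaxel-resistant line. NHERF1, a scaffold that binds such linkers, fell by 0.62 (adjusted p = 0.00980) in the docetaxel-resistant line, a call lost on the deposited values (adjusted p = 0.101).

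CROT was set beside 18 genes of carnitine and peroxisomal fatty acid handling, of which 4 were called higher and 3 lower in the docetaxel-resistant line, and 4 higher and 1 lower in the paclitaxel-resistant line. HSD17B4, the peroxisomal bifunctional enzyme, rose by 1.76 ± 0.20 (limma, adjusted p = 0.000107) and 1.74 ± 0.20 (adjusted p = 0.000107). SLC22A5, which takes up carnitine, rose by 0.92 ± 0.13 (adjusted p = 0.000653) and 0.73 ± 0.13 (adjusted p = 0.00262). CRAT, carnitine acetyltransferase, fell by 1.05 (adjusted p = 0.00777) in the docetaxel-resistant line and stood at -0.31 (adjusted p = 0.433) in the other. PEX6, a peroxisomal import ATPase, fell by 0.70 (adjusted p = 0.00789) and stood at 0.24 (adjusted p = 0.350). Members of this list moved both ways, with medians of -0.0016 and 0.20.

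For the bile functions of ABCB4, 1 of 6 genes of canalicular transport was called in each line. ABCG5, a sterol transporter subunit, rose by 0.41 (limma, adjusted p = 0.0379) in the docetaxel-resistant line, and PPARA, a nuclear receptor, rose by 0.55 (adjusted p = 0.0433) in the paclitaxel-resistant line. Both calls were lost under 12 of the alternatives tried. The hepatocyte marker ALB read 20.6 to 35.5 over all arrays. Of 9 hepatocyte markers, 1 was called lower in each line and none higher, with lowest differences of -3.55 and -2.44.

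Around DMTF1 and TP53TG1, none of 13 ARF and p53 pathway genes was called higher, while 5 were called lower in the docetaxel-resistant and 4 in the paclitaxel-resistant line. The D-type cyclin CCND3 fell by 1.25 ± 0.14 (limma, adjusted p = 0.000114) and 0.98 ± 0.14 (adjusted p = 0.000578). CCND2 fell by 1.12 ± 0.16 (adjusted p = 0.000495) and 1.11 ± 0.16 (adjusted p = 0.000489) in its brightest probe set, and its 2 others, near the bottom of the scale, were not called. The pro-apoptotic BAX fell by 0.69 (adjusted p = 0.00621, and 0.0687 on the deposited values) and 1.18 (adjusted p = 0.000209). GADD45A, a p53 target, fell by 0.85 (adjusted p = 0.00318) and 0.54 (adjusted p = 0.0334), the latter call lost without sensitive replicate 3 (0.120), docetaxel-resistant replicate 2 (0.0529) or paclitaxel-resistant replicate 2 (0.0513) or 3 (0.126).

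Beside SLC25A40, 7 genes of glutathione synthesis and use were measured. GPX1, a glutathione peroxidase, fell by 0.80 ± 0.14 (limma, adjusted p = 0.00197) and 1.06 ± 0.14 (adjusted p = 0.000311). GCLM, a subunit of the enzyme that starts glutathione synthesis, rose by 0.44 (adjusted p = 0.0491) in the paclitaxel-resistant line, a call lost under 15 of 19 alternatives. No other gene of the list was called in either line.

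The genes whose pattern was most like that of ABCB1 over the 9 arrays were ranked by Pearson's r of the log2 values among 6945 probe sets whose highest group mean was above the median. They were LCP1 (r = 0.990), WARS2 (r = 0.979), TBL1X (r = 0.977), PRDX4 (r = 0.975) and USP33 (r = 0.975). Spearman's rho was 0.900, 0.883, 0.933, 0.817 and 0.967 in that order. The arrays form 3 clusters by group, so these values describe the order of the groups and carry no p. None of the 5 lies on chromosome 7.

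These 5 were selected on the same arrays for following ABCB1, so their differences from sensitive cells are given without a test. LCP1, a leukocyte plastin that bundles actin, went from a mean intensity of 19.9 to 669 and 79.0 and stood 4.18 ± 0.21 and 1.28 ± 0.21 above sensitive cells in the docetaxel-resistant and paclitaxel-resistant lines. USP33, a deubiquitinase, went from 28.5 to 715 and 128 and stood 3.97 ± 0.31 and 1.70 ± 0.31 higher. TBL1X, a corepressor subunit, stood 1.55 ± 0.12 and 0.74 ± 0.12 higher. WARS2, a mitochondrial tRNA synthetase, stood 2.35 and 0.61 higher, and PRDX4, a peroxiredoxin of the endoplasmic reticulum, 1.21 and 0.48 higher.

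Array medians ran from 33.7 in sensitive replicate 2 to 43.9 in docetaxel-resistant replicate 3, and 24.0% to 27.0% of probe sets read under 16. For ABCB1 and TMEM243 the array with the highest value was the array with the highest median in all 3 groups, also after normalization. The 3′ minus 5′ log2 difference of the GAPDH control, a sign of RNA quality, was 0.0145 to 0.0389 in sensitive arrays, 0.00665 to 0.130 in docetaxel-resistant arrays and 0.0935 to 0.201 in paclitaxel-resistant arrays, and that of actin stood out in paclitaxel-resistant replicate 1 (0.172). Without that array ABCB1 stood at 1.55 in the paclitaxel-resistant line. The mesenchymal marker VIM read 4524 to 9561. Summed intensity of 9 breast basal and mesenchymal markers, VIM among them, was 11739 to 15083 in sensitive arrays. It was lower in the resistant ones, at 9392 to 10324 in docetaxel-resistant and 9650 to 10734 in paclitaxel-resistant arrays. Of these 9, 1 was called higher and 3 lower in each resistant line. KRT8 and KRT18, epithelial keratins on the list of 10 breast luminal markers, read at least 894 and 2863. PGR, on the same list, read 5.77 to 11.7. Summed intensity of the 10 luminal markers was 6171 to 7229 in sensitive, 6067 to 6955 in docetaxel-resistant and 5972 to 6152 in paclitaxel-resistant arrays. In each group 2 of these 10 had a mean under 16. Summed intensity of 8 blood cell markers, LCP1 among them, was 1295 to 2267 in sensitive, 2346 to 2811 in docetaxel-resistant and 1227 to 1901 in paclitaxel-resistant arrays, with the pan-leukocyte marker PTPRC at 3.70 to 11.6. Summed intensity of 9 hepatocyte markers was 597 to 687, 273 to 336 and 323 to 363 in the same order of groups. That of 8 fibroblast markers was 316 to 325, 506 to 653 and 368 to 461, with the marker LUM at no more than 4. Of these 8, 2 were called higher in the docetaxel-resistant line (largest difference 1.98) and 1 in the paclitaxel-resistant line (1.11). None was called lower. Over all genes 20.4% and 21.0% were called in either direction. The part of these differences in the values of the 8 genes was not tested.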

How the data were processed

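Deposited values from 9 Affymetrix arrays were used, 3 per group (sensitive, docetaxel-resistant, paclitaxel-resistant). They are a linear intensity per probe set that the authors made with Affymetrix Expression Console 1.1.2 and PLIER, per the submitters' processing notes. The sources used here do not give background correction or detection calls, so a low value can be background. RNA input was 5 µg per the labels' protocols. Arrays hold no read depth: their number limits the precision.

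Of 22283 probe sets 68 were controls. Of 22215 human ones 19065 had 1 gene symbol, 1043 several and 2107 none, and 19053 gene identifiers were found in RefSeq, which gave symbols and gene order. Values became log2(intensity + 16), were quantile-normalized because log2 array medians differed by 0.27, and were fitted with 3 group means in limma 3.58.1 (R 4.3.3; lmFit, eBayes, 6 residual and 5.82 prior degrees of freedom). P-values are two-sided, Benjamini-Hochberg adjusted over all human probe sets within a comparison and called below 0.05. Intervals are 95%. For lists, the probe set with the highest mean stood for a gene. The fit was tested on simulated data.

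The genes and lists were chosen with earlier results of these data known. Named were all probe sets of the 8 genes and, among 10 measured genes on either side, the nearest and those called. Up to 4 called genes per list were named, and the 5 probe sets most like ABCB1 outside the 8 genes. Second probe sets of these, marker genes and DBF4's values per array were named after values were seen. Alternatives were pseudocounts of 1 and 64, median scaling, no normalization, a minimum group mean of 32, a trended robust spread, 1 probe set per gene, a replicate block, the 6 arrays compared, leaving out each array, and leaving out the arrays of lowest and highest median. No pair of arrays had over 0.234% identical values.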

Additional observations from a re-analysis of the deposited data

How the results depend on the processing

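Of 19 alternatives, none turned the direction of ABCB1 in any comparison or ended its call in the paclitaxel-resistant line (1.72; range 0.81 to 2.91, adjusted p at most 0.00584). The number added before taking logs moved it most: with 1 and 64 in place of 16 the docetaxel-resistant line stood 6.90 and 3.86 above sensitive cells, and the lines differed by -3.99 and -3.05. Leaving out 1 array gave 5.21 to 5.54, -3.86 to -3.52 and, for paclitaxel, 1.55 to 1.84. The number of probe sets called in the docetaxel-resistant line, 3922, became 2539 with 1 probe set per gene, where fewer were tested, 1970 once the dimmest and brightest arrays by median were left out, and 2447 (without docetaxel-resistant replicate 3) to 3970 with 1 array left out. In the paclitaxel-resistant line 4128 became 2600 with 1 probe set per gene and 3070 to 4263 with 1 array left out. Between the lines 356 became 84 with 1 added and 518 with 64 added, 215 on the deposited values, 214 with the replicate number as a block, 182 with those same arrays left out, and 111 (without docetaxel-resistant replicate 2) to 421 with 1 array left out. Where no fewer probe sets or arrays were used, the cause was not tested. The called probe sets of the 8 genes in the paclitaxel-resistant line, 5 of 10, were 3 with 1 probe set per gene, 6 with the replicate block, which added TMEM243 (adjusted p = 0.0400), and 4 to 6 with 1 array left out. Same-numbered arrays deviated from their group means with correlations of -0.40 to 0.29. With 3 arrays per group these cannot settle whether the numbers pair the samples, so the block is given only as an alternative. Values near the bottom of the scale, those of ABCB1 and ABCB4 in sensitive cells and RUNDC3B, limit the size of their differences.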
